A study of Mus musculus with 12 samples.

Results

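The 9 genes of mast cells described here were measured in colon mucosa of 12 mice: Hdc, Mcpt1, Mcpt2, Mcpt4, Cma1, Tpsb2, Cpa3, Kit and Fcer1a. They were chosen by gene name. Their probes were found on the arrays through the RefSeq accession in the files, and all 9 of the 9 genes were measured, among 23747 genes tested. Together they have 11 probes, because Mcpt4 and Cma1 have 2 probes each, and the gene's brighter probe stands for it unless the other is named. All 9 passed the filter on dim probes, which kept a probe where the 3 arrays of any 1 group all showed it well above background. Mcpt2 passed only through the group of treated mice with KO marrow.

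Mast cells are tissue-resident immune cells that arise from marrow progenitors and store proteases and histamine in granules. Histidine decarboxylase, encoded by Hdc, makes histamine, and neutrophils and other myeloid cells can also express it. In mice, mast cells within mucosal epithelium carry the chymases encoded by Mcpt1 and Mcpt2, and increase in number in parasite infection of the gut. Mast cells of connective tissue, including the submucosa, carry the chymases encoded by Mcpt4 and Cma1, the tryptase encoded by Tpsb2 and carboxypeptidase A3, encoded by Cpa3. Kit is the receptor for stem cell factor, on which mast cells depend, and Fcer1a encodes the chain of the high-affinity receptor that binds IgE.

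All recipients were wild-type C57BL/6 mice carrying bone marrow from C57BL/6 donors that were either wild type (WT marrow) or lacked Muc1 (KO marrow), a membrane mucin. The Muc1 deletion was therefore carried by donor-derived blood cells only, while epithelium, fibroblasts and muscle were wild type in every group. The share of the recipients' own mast cells that remained, and the age and sex of the mice, are not given in the sources used here. Treated mice received 12.5 mg/kg of the colon carcinogen azoxymethane (AOM) by intraperitoneal injection. From 5 days later they drank dextran sodium sulfate (DSS), which injures the colon lining: 2% for 4 days and then plain water for 14 days, the same cycle a second time, and finally 2.5% for 5 days. Colons were taken 1 day after that, and the mucosa of each colon was scraped and hybridised to its own single-colour array. Each of the 4 groups held 3 mice: WT marrow untreated, KO marrow untreated, WT marrow with AOM and DSS, and KO marrow with AOM and DSS. Mice are named below by marrow, treatment and replicate number.

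Levels are log2 spot signals relative to the 75th percentile of the same array, so that 0 is the level of that percentile. A change is a difference of group means of these levels, with its SE from a linear model fitted to all 12 arrays with limma. Benjamini-Hochberg adjustment was made over all genes tested, and a gene is said to rise or fall where its adjusted p was below 0.05. The 75th percentile itself was 332 to 767.8 signal units on 11 arrays and 153.2 in treated WT-marrow mouse 3. The arrays lay on 3 slides. Slide 1 held the 3 untreated WT-marrow mice and untreated KO-marrow mouse 1. Slide 2 held untreated KO-marrow mice 2 and 3 and mouse 3 of each treated group. Slide 3 held mice 1 and 2 of each treated group and was scanned on another day than slides 1 and 2. No slide held both WT-marrow groups, so every effect of treatment with WT marrow is a comparison between slides. A second fit with slide as a block is given beside the treatment result of each gene, and for KO marrow also the difference within slide 2. The latter sets 1 treated mouse against 2 untreated mice, so it is given as a value with no test. Epithelial genes checked the labelled tissue: Epcam was at 5.69 or above and Cdh1 at 6.06 or above on every array. Muc1 was at -1.82 ± 0.38 (SD, n = 3) in untreated mice with WT marrow and -2.94 ± 0.84 with KO marrow, and at -2.39 ± 1.04 and -1.90 ± 0.79 in the treated mice. These differences did not pass the test (limma, adjusted p of 0.425 untreated and 1 treated), and since the epithelium kept the gene its level does not check the marrow labels.

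The chymase genes among the 9 lie together on chromosome 14. The sequences just before the starts of 3 of them are shown, because Mcpt1 and Mcpt4 rose with treatment while Cma1 fell with WT marrow. For Mcpt4 and Cma1 this held on the brighter probe only. Whether these sequences bear on the changes was not tested. Each is the 250 bases before the annotated start in RefSeq (GRCm38.p6), written 5′ to 3′ in the direction of the gene, with capitals marking each match to GATAA or its reverse complement TTATC, the core that GATA factors bind.
Mcpt1, chr14:56017714-56017963 (plus strand): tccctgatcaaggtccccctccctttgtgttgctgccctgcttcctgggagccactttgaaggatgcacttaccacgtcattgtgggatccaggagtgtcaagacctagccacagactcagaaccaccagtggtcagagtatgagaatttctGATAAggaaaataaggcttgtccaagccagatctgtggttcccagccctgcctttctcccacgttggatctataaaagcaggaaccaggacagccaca
Mcpt4, chr14:56062311-56062560 (minus strand): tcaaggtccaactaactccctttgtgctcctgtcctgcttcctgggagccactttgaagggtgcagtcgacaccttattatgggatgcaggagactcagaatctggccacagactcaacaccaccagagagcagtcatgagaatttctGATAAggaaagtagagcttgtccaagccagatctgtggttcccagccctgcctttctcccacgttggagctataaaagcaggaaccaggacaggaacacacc
Cma1, chr14:55944676-55944925 (minus strand): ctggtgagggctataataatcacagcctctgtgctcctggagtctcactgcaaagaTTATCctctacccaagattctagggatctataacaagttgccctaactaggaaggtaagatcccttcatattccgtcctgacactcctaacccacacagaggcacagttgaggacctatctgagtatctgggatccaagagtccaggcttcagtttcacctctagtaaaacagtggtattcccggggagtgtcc
The match lay 98 bases before the start of Mcpt1, 102 before that of Mcpt4 and 194 before that of Cma1, there on the opposite strand. An alignment over 258 columns showed the Mcpt1 and Mcpt4 windows to be 81.0% identical, and both hold the match in the same surrounding bases. The Cma1 window was 48.5% identical to that of Mcpt1 and 49.3% identical to that of Mcpt4. Promoter windows were matched for 7 of the 9 genes, and not for Tpsb2 or for Mcpt2, which also rose. Of those 7, 5 held GATAA or TTATC: these 3, Cpa3 and Fcer1a. Of all 32851 windows of this length, 22.6% held it. The E-box CATGTG or its reverse complement CACATG was present in 1 of the 7 windows, that of Fcer1a, and in 12.3% of all windows.

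AOM and DSS treatment was accompanied by higher levels of Hdc and of 3 of the 4 chymase genes in mice of both marrows. Of these, Mcpt2 did not pass under another background correction, and Mcpt4 rose on its brighter probe and not on its dimmer one. With WT marrow, Hdc, Mcpt1, Mcpt2 and Mcpt4 rose and Cma1 and Tpsb2 fell, 6 of the 9 genes, where 13.8% of all genes tested passed the threshold (3.61% higher and 10.2% lower). With KO marrow the same 4 genes rose and none fell, where 3.15% of all genes passed (1.85% higher and 1.31% lower). Averaged over both marrows, 6 of the 9 genes passed, with 21% of all genes (7.55% higher and 13.5% lower). With slide as a block the counts were 1, 4 and 3 of the 9 genes, all higher, where 0.535%, 7.26% and 6.2% of all genes passed and 0.467%, 4.66% and 4.11% were higher. Cpa3, Kit and Fcer1a did not pass in any of these fits. For 4 of the 9 genes, Hdc, Mcpt1, Mcpt2 and Mcpt4 (brighter probe), all 6 treated mice were above all 6 untreated mice, as for 4.28% of all genes. For none were they all below, as for 3.9%. Taking WT marrow alone, these 4 genes lay higher without overlap (11.2% of all genes) and Cma1 and Tpsb2 lower (22%), and with KO marrow alone these 4 lay higher (11.2%) and Cma1 lower (12.5%). In a whole-tissue sample, more or fewer mast cells and more or less RNA per cell cannot be told apart.

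**Figure D1:**
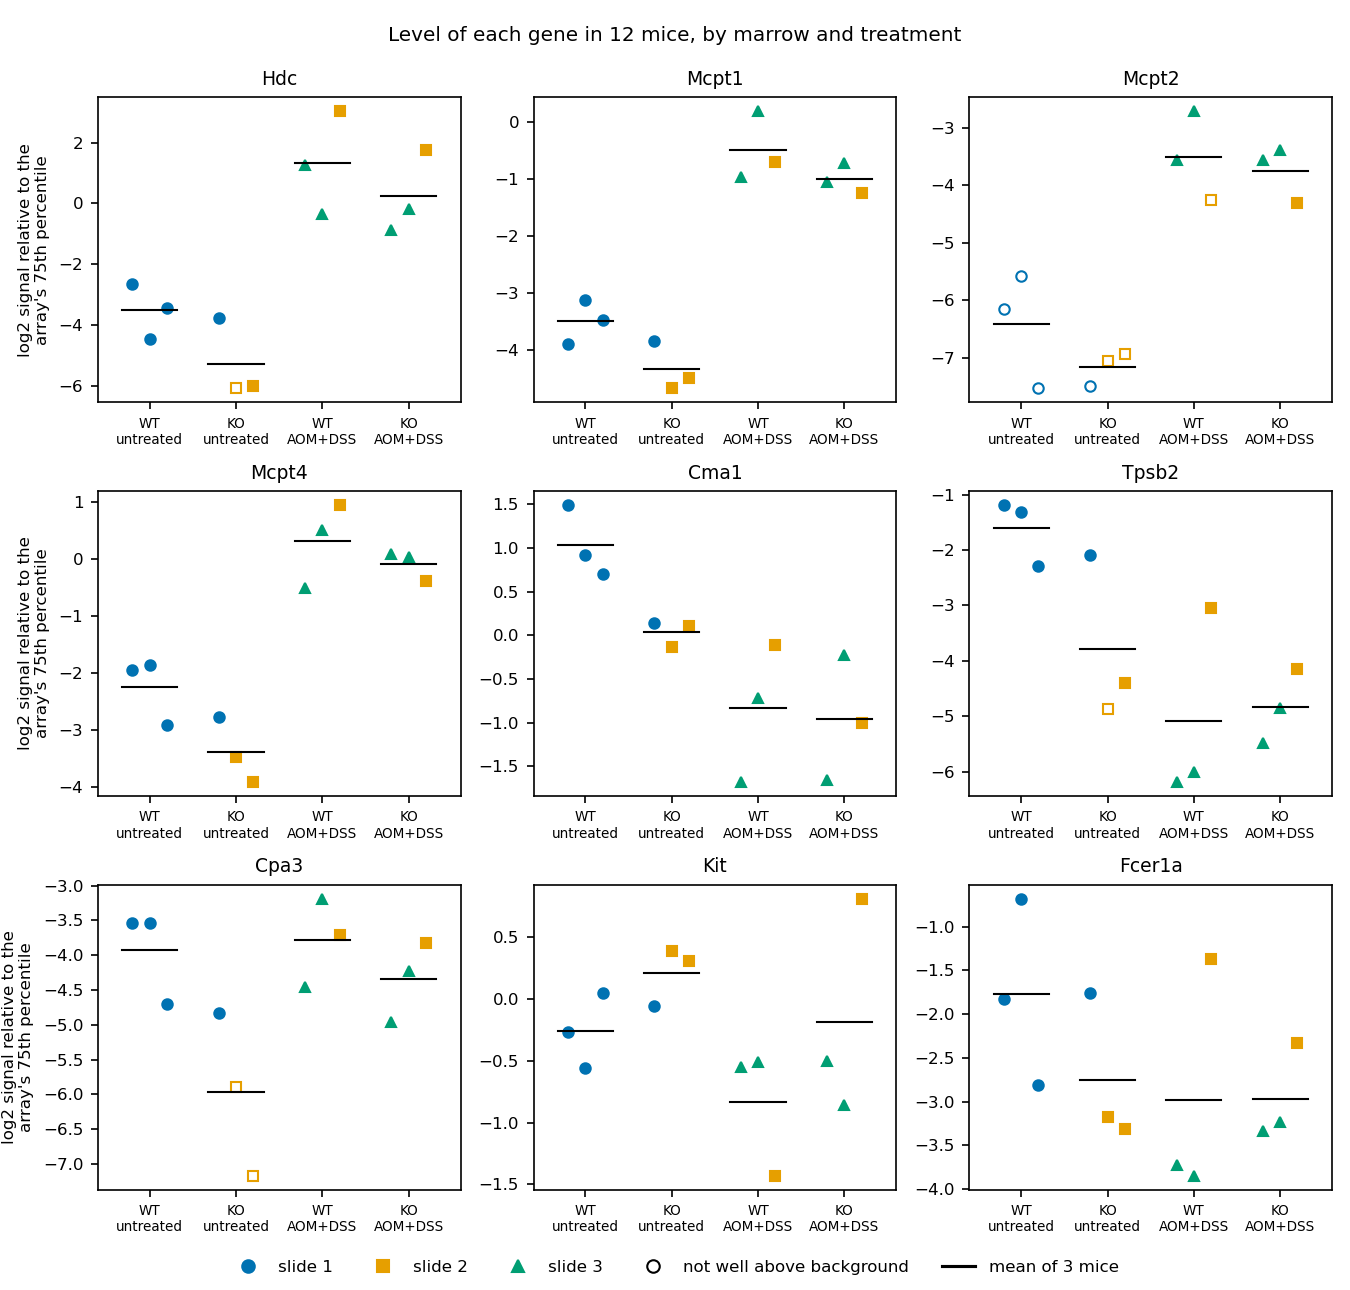
Log2 level of each of the 9 genes, relative to the array's 75th percentile, in the 12 mice by marrow and treatment; each point is 1 mouse, colour and shape give the slide, open symbols were not well above background and lines are means of 3 mice. Mcpt4 and Cma1 are shown by their brighter probe. Hdc, Mcpt1, Mcpt2 and Mcpt4 lie higher in all 6 treated mice than in all 6 untreated mice, while Tpsb2 is highest in the 4 mice of slide 1.

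Hdc had the largest change of the 9 genes. In untreated mice its level was -2.64, -4.47 and -3.44 with WT marrow and -3.77, -6.07 and -6.00 with KO marrow. In treated mice it was 1.28, -0.36 and 3.03 with WT marrow and -0.87, -0.17 and 1.77 with KO marrow. Untreated KO-marrow mouse 2 was not well above background. Every treated mouse was above every untreated mouse, and mouse 3 of each treated group, both on slide 2, was the highest of its group. The change was 4.84 ± 0.91 with WT marrow, a 28.6-fold difference (limma, adjusted p = 0.0101), and 5.53 ± 0.91 with KO marrow, a 46.2-fold difference against a group partly at background (adjusted p = 0.00547). After a normexp background correction, which draws low signals together, the changes were smaller, 3.19 with WT marrow (limma, adjusted p = 0.000726) and 3.13 with KO marrow (adjusted p = 0.000658). Hdc was the only one of the 9 genes that passed in every treatment fit with slide as a block, with 8.72 for WT marrow (limma, adjusted p = 0.00505) and 7.90 for KO marrow (adjusted p = 0.000188). Within slide 2, treated KO-marrow mouse 3 was 7.81 above the mean of untreated KO-marrow mice 2 and 3. The order of the group means, from the lowest, was untreated KO, untreated WT, treated KO and treated WT marrow, and groups of the same treatment overlapped.

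No other tested gene of histamine handling rose. Of 7 genes listed for this pathway, 5 were tested. Averaged over both marrows 2 fell and none rose, where 13.5% of all genes fell and 7.55% rose. With 5 genes, none higher is near the share of all genes. Slc18a2, the vesicular monoamine transporter that loads histamine into granules, changed by -1.70 ± 0.40 (limma, adjusted p = 0.0127), and Aoc1, the diamine oxidase that breaks histamine down, by -0.65 ± 0.19 (adjusted p = 0.0291). Neither passed with slide as a block, where the Slc18a2 change was 0.07 and that of Aoc1 -0.40. The median of the 5 genes was -1.13, beside -0.19 for all genes tested. Markers of neutrophils rose in the same mice. Of 13 listed, 10 were tested. Averaged over both marrows, 9 of these 10 rose and none fell, where 7.55% of all genes rose and 13.5% fell. The summed linear level of these 10 genes was 0.25 to 0.704 in untreated mice, 49.8 to 126 in treated mice with WT marrow and 11.8 to 54.7 in those with KO marrow. S100a8 and S100a9, calcium-binding proteins abundant in neutrophils, changed by 8.94 ± 0.60 and 8.16 ± 0.45 (limma, adjusted p of 5.55e-06 and 9.63e-07). S100a8 was well above background on only 1 of 3 arrays in each untreated group, so the size of its change is uncertain. Cxcr2, Csf3r, Retnlg and Mmp8 were not well above background on any untreated array. Like S100a8 and Clec4e, they passed the filter only through treated groups, where they were high. The count of rises is therefore not independent of the filter. The part of these cells in the Hdc signal was not tested.

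The genes whose levels over the 12 arrays lay nearest to those of Hdc, by root mean square difference after centring each gene, were Clec4e, Il1r2, Ccl4 and Cxcl2. Their differences from Hdc were 0.75, 0.90, 0.93 and 0.95 log2 units, where Hdc itself varied by 2.91 around its mean, over 13189 candidate genes. Clec4e, a lectin receptor of myeloid cells that was also in the neutrophil list, changed by 5.90 with WT marrow and 5.70 with KO marrow, with the probe well above background on 1 of the 6 untreated arrays. Il1r2 is a decoy receptor for interleukin 1, and Ccl4 and Cxcl2 are chemokines. Among untreated mice, Il1r2 was well above background only in KO-marrow mouse 1, and Cxcl2 in none. These genes were all higher in treated than in untreated mice, since the measure picks genes that share the shift of Hdc.

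Of the mucosal chymase genes, Mcpt1 rose with both marrows on processed signals and after the normexp correction, and Mcpt2 only on processed signals. Mcpt1 was at -3.89, -3.13 and -3.47 in untreated mice with WT marrow and at -0.97, 0.19 and -0.70 in the treated ones. The KO-marrow mice were at -3.85, -4.67 and -4.49 untreated and at -1.06, -0.71 and -1.24 treated. The lowest treated mouse was thus well above the highest untreated mouse, and within a treatment the marrows overlapped. The change was 3.00 ± 0.42 with WT marrow, 8.01-fold (limma, adjusted p = 0.0028), and 3.34 ± 0.42 with KO marrow, 10.1-fold (adjusted p = 0.00102). The slide block gave 3.51 with WT marrow, which missed the threshold (limma, adjusted p = 0.0581), and 3.36 with KO marrow (adjusted p = 0.00329). Within slide 2 the difference was 3.34.

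Mcpt2 was not well above background on any of the 6 untreated arrays, where it was at -6.15, -5.57 and -7.53 with WT marrow and at -7.50, -7.06 and -6.93 with KO marrow. In treated mice it was at -3.55, -2.71 and -4.25 with WT marrow, well above background on 2 of the 3 arrays (not in mouse 3), and at -3.55, -3.39 and -4.30 with KO marrow, on all 3. No treated mouse overlapped an untreated one, and mouse 3 was the lowest in each treated group. The fold is given as a lower bound: the treated mean was set against an untreated mean in which each array counted with the Mcpt2 signal or, if larger, the faintest signal that was well above background there. On processed signals it was at least 5.04-fold with WT marrow and at least 4.61-fold with KO marrow. The fitted changes were 2.91 ± 0.65 and 3.42 ± 0.65 (limma, adjusted p of 0.0192 and 0.0126), and their size is uncertain because the untreated signals were at background. Mcpt2 entered the test through the treated KO-marrow group, where it was high. Without the filter on dim probes it passed as well, with adjusted p of 0.0239 and 0.016 (limma). The normexp correction gave 1.83 with WT marrow (limma, adjusted p = 0.146), 1.16 with KO marrow (adjusted p = 0.75) and 1.49 averaged over both (adjusted p = 0.0645), so that no call was left and both changes were smaller than the bounds above. The slide block gave 1.75 with WT marrow (limma, adjusted p = 0.383) and 2.60 with KO marrow (adjusted p = 0.0464). Within slide 2 the difference was 2.69. Leaving out untreated WT-marrow mouse 1, or treated WT-marrow mouse 1 or 2, ended the call with WT marrow, with changes of 2.51 to 3.04 (limma, adjusted p of 0.0626 to 0.0709). With KO marrow, leaving out untreated mouse 2 or treated mouse 1 or 2 did so, with changes of 3.24 to 3.47 (adjusted p of 0.0512 to 0.0583).

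Genes nearest to Mcpt1 over the 12 arrays were Slc5a9, a sugar transporter, Fcgr3, a receptor for IgG on myeloid cells, Glipr1 and Tyrobp, a signalling adaptor of myeloid and natural killer cells. Their root mean square differences were 0.48 to 0.51, where Mcpt1 varied by 1.66. Nearest to Mcpt2 were Steap4, Plaur, Rgs1 and Tnfrsf1b, at 0.47 to 0.52, where Mcpt2 varied by 1.70. Plaur encodes the receptor of urokinase and Tnfrsf1b a receptor of tumour necrosis factor. All 8 were higher in treated than in untreated mice, by 2.17 to 3.55 in one marrow or the other, since the measure picks genes that share this shift.

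**Figure D2:**
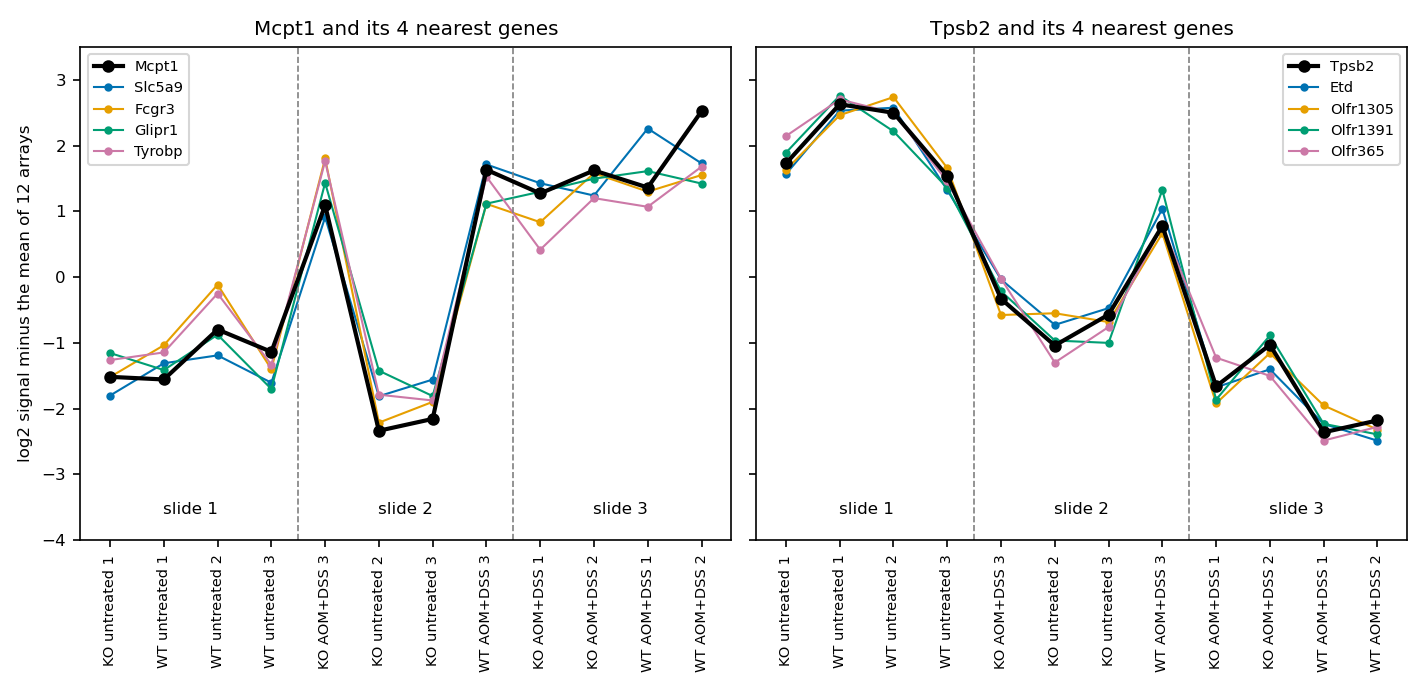
Log2 level minus the mean of the 12 arrays for Mcpt1 and for Tpsb2 (black), each with the 4 genes of smallest root mean square difference (colours), with arrays ordered by slide. Mcpt1 and its neighbours are high in the 6 treated mice on both slides 2 and 3, whereas Tpsb2 and its neighbours are high on slide 1 and low on slide 3.

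Mcpt4 encodes a chymase of connective-tissue mast cells, and on its brighter probe it moved as the mucosal chymases did. The level was -1.95, -1.86 and -2.92 in untreated and -0.51, 0.51 and 0.94 in treated mice with WT marrow. The KO-marrow levels were -2.77, -3.48 and -3.91 untreated and 0.08, 0.03 and -0.39 treated. Treated and untreated mice did not overlap in either marrow. The change was 2.56 ± 0.45, 5.88-fold, with WT marrow (limma, adjusted p = 0.00753) and 3.29 ± 0.45, 9.81-fold, with KO marrow (adjusted p = 0.00182). With slide as a block it was 3.64 with WT marrow (limma, adjusted p = 0.0718) and 3.76 with KO marrow (adjusted p = 0.00346), and within slide 2 the difference was 3.30.

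The dimmer Mcpt4 probe did not show this rise. It was at -2.47, -2.50 and -3.57 in untreated and at -3.39 and -1.72 in treated WT-marrow mice 2 and 3, the spot of treated mouse 1 having been set aside as an outlier by the scanner software. Its KO-marrow levels were -2.53, -4.54 and -4.72 untreated and -3.61, -3.16 and -2.86 treated. The groups overlapped in both marrows, although on slide 2 alone both treated mice were above both untreated mice. Its change was 0.29 with WT marrow (limma, adjusted p = 0.813) and 0.72 with KO marrow (adjusted p = 0.688). The chymase genes of this cluster are close in sequence, and how far each probe also binds the transcripts of its neighbours was not tested.

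**Figure D3:**
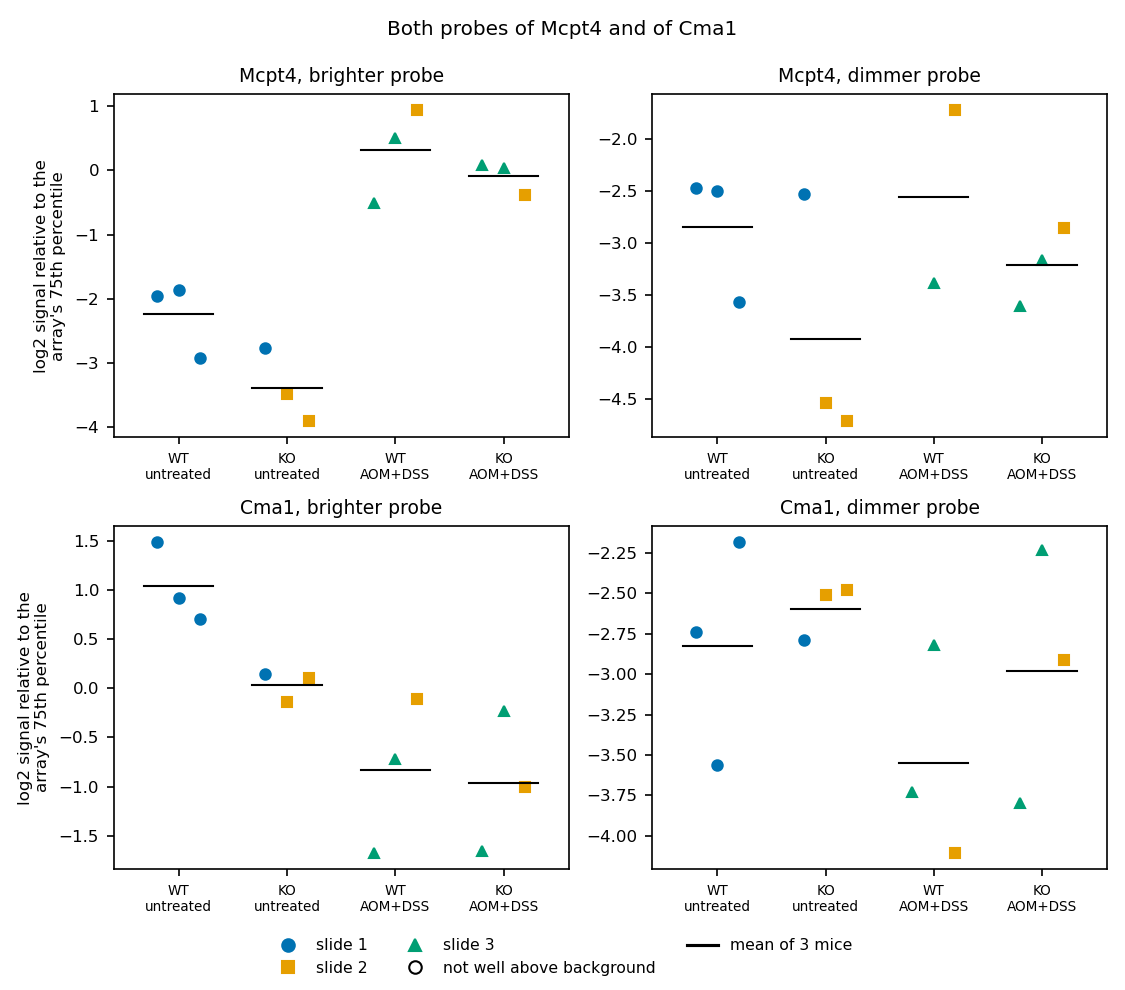
Log2 level, relative to the array's 75th percentile, of both probes of Mcpt4 and of Cma1 in the 12 mice, with 1 point per mouse, colour and shape for the slide and lines for means (of 2 mice for the dimmer Mcpt4 probe in treated WT-marrow mice, otherwise of 3). The brighter Mcpt4 probe separates treated from untreated mice in both marrows and the dimmer one does not.

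Cma1 moved the other way. This chymase gene was at 1.49, 0.92 and 0.70 in untreated and at -1.68, -0.72 and -0.11 in treated mice with WT marrow. In KO-marrow mice it was at 0.14, -0.14 and 0.10 untreated and at -1.66, -0.23 and -1.0 treated. Untreated mice with WT marrow were above all other groups, and the treated marrows overlapped. The change was -1.87 ± 0.43 with WT marrow, 3.67-fold lower (limma, adjusted p = 0.0205), and -1.0 with KO marrow, which did not pass (adjusted p = 0.299). With slide as a block the WT-marrow change was -1.37 and the KO-marrow change -0.60, and neither passed (limma, adjusted p of 0.385 and 0.464). Within slide 2 the difference was -0.98. The dimmer Cma1 probe changed by -0.72 and did not pass either (limma, adjusted p = 0.354). Scaling each array to its median in place of its 75th percentile gave -1.26 and ended the call (limma, adjusted p = 0.055), as did leaving out untreated WT-marrow mouse 1 or 2 or treated WT-marrow mouse 1 (changes of -1.45 to -1.93, adjusted p of 0.068 to 0.0917). Nearest to Cma1 over the 12 arrays were Spsb1, Fzd10, Zfp385b and Vsig8, at 0.29 to 0.35, where Cma1 varied by 0.93.

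Tpsb2, the tryptase gene, fell with WT marrow, but its level followed the slide. It was at -1.19, -1.32 and -2.28 in untreated and at -6.18, -6.00 and -3.04 in treated mice with WT marrow. With KO marrow it was at -2.09, -4.86 and -4.39 untreated and at -5.48, -4.85 and -4.15 treated. By slide, it was between -2.28 and -1.19 on slide 1, between -4.86 and -3.04 on slide 2 and between -6.18 and -4.85 on slide 3. Untreated KO-marrow mouse 1, the only KO-marrow mouse on slide 1, lay within the range of the WT-marrow mice of that slide. Tpsb2 and Cma1 were the 2 of the 9 genes whose 4 arrays of slide 1 lay above all 8 others, as did 14.6% of genes with a value on every array.

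The change of Tpsb2 with WT marrow was -3.48 ± 0.88, 11.1-fold lower (limma, adjusted p = 0.0275), and with KO marrow -1.04 (adjusted p = 0.666). Adding slide as a block turned the sign, to 0.42 with WT marrow (limma, adjusted p = 0.836), 1.16 with KO marrow (adjusted p = 0.251) and 0.79 averaged over both (adjusted p = 0.461, against -2.26 and 0.0252 without the block). Within slide 2 the difference with KO marrow was 0.48, with untreated mouse 2 not well above background. With a normexp background correction the WT-marrow change was -0.22 (adjusted p = 0.816). Leaving out untreated mouse 1 or 2 or treated mouse 1 or 2 of the WT-marrow groups ended that call, with changes of -2.92 to -3.34 (limma, adjusted p of 0.0807 to 0.111). For Tpsb2 with WT marrow, treatment and slide cannot be told apart. The 4 genes nearest to Tpsb2 were Etd and the olfactory receptor genes Olfr1305, Olfr1391 and Olfr365, at 0.22 to 0.26, where Tpsb2 varied by 1.70. Olfr1391 and Olfr365 were well above background on all 4 arrays of slide 1 and on none of the 4 arrays of slide 3.

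**Figure D4:**
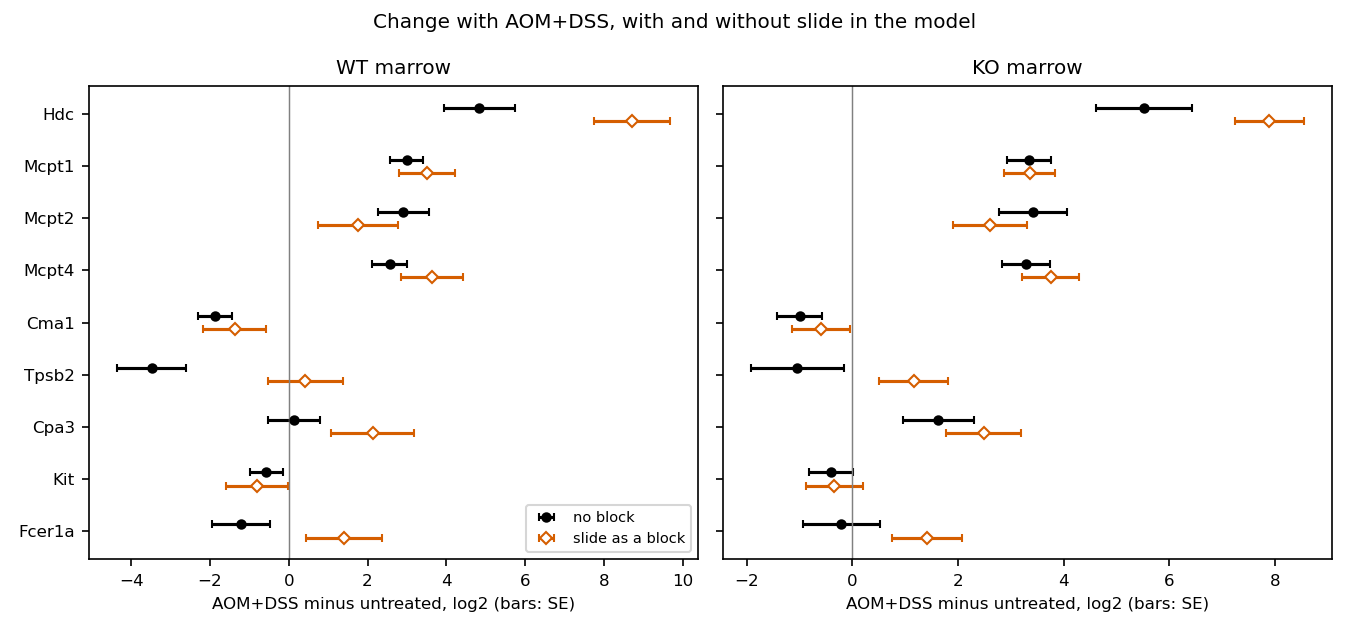
Change with AOM and DSS (treated minus untreated, log2, bars are SE) of the 9 genes for WT marrow (left) and KO marrow (right), without a block (filled) and with slide as a block (open). Hdc, Mcpt1, Mcpt2 and Mcpt4 lie above 0 in both fits, and the changes of Tpsb2 and Fcer1a lie below 0 without the block and above 0 with it.

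Cpa3, Kit and Fcer1a did not pass the test of treatment in either marrow. Cpa3 was at -3.53, -3.53 and -4.70 in untreated and at -4.46, -3.19 and -3.71 in treated mice with WT marrow, and the groups overlapped. With KO marrow it was at -4.83, -5.89 and -7.17 untreated, not well above background in mice 2 and 3, and at -4.96, -4.23 and -3.82 treated. The changes were 0.13 ± 0.67 and 1.63 ± 0.67 (limma, adjusted p of 0.91 and 0.276). The slide block gave larger changes that did not pass, 2.13 and 2.49 (limma, adjusted p of 0.312 and 0.0569), and within slide 2 the difference was 2.71. Averaged over both marrows Cpa3 changed by 0.88 (limma, adjusted p = 0.191), or by 2.31 with the block (adjusted p = 0.0865). Quantile normalization and scaling to the median brought that change past the threshold, at 1.34 (limma, adjusted p = 0.0188) and 1.22 (adjusted p = 0.0372). In those fits 27.1% and 24.5% of all genes passed, against 21% in the main fit.

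Fcer1a was at -1.83, -0.68 and -2.81 in untreated and at -3.73, -3.85 and -1.37 in treated mice with WT marrow. With KO marrow it was at -1.76, -3.18 and -3.31 untreated and at -3.34, -3.23 and -2.33 treated. The groups overlapped in both marrows, with high levels on slide 1 and low ones on slide 3, as for Tpsb2. The changes were -1.21 with WT marrow (limma, adjusted p = 0.264) and -0.21 with KO marrow (adjusted p = 0.93), and 1.41 for each with slide as a block (not passing, at 0.457 and 0.184 after adjustment). Within slide 2 the difference was 0.92. Without treated WT-marrow mouse 3 the change with that marrow was -2.02 and passed (limma, adjusted p = 0.0298). In that fit 30.6% of all genes passed, against 13.8% with all mice.

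Kit is also the receptor that marks interstitial cells of Cajal, the pacemaker cells of gut muscle. Its level was -0.27, -0.56 and 0.05 in untreated and -0.55, -0.51 and -1.43 in treated mice with WT marrow. With KO marrow it was -0.06, 0.39 and 0.31 untreated and -0.50, -0.86 and 0.81 treated. The changes were -0.57 (limma, adjusted p = 0.356) and -0.40 (adjusted p = 0.734), and 0.45 within slide 2. The slide block gave -0.80 and -0.34 (limma, adjusted p of 0.609 and 0.676). Kit has 10 spots on each array, and in treated WT-marrow mouse 3, the array with the lowest overall signal, they ranged from 16.7 to 248.4 signal units, with an SD of 0.933 on the log2 scale and 2 spots set aside as outliers. On the other 11 arrays the SD of the 10 spots was 0.052 to 0.136. Of the 4 genes listed for interstitial cells of Cajal, Ano1, their chloride channel, fell by 1.15 averaged over both marrows (limma, adjusted p = 0.00127). None of the 4, which include Kit itself, rose, and among all genes 13.5% fell and 7.55% rose. With slide as a block Ano1 missed the threshold, at -1.19 (limma, adjusted p = 0.0556). Ano1 is also expressed by other cells of the gut, and the part of either cell type in the Kit signal was not tested.

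Within slide 2, where 2 treated and 2 untreated mice were hybridised side by side, both treated mice were above both untreated mice for 7 of the 9 genes and below for none. The exceptions were Cma1 and Kit. A fit that assumes the lone treated KO-marrow array to vary like the other groups put 3 of the 9 genes past the threshold for KO marrow on this slide, Hdc, Mcpt1 and Mcpt4, and 4.15% of all genes. Of all genes with a value on every array, 48.3% were higher in both treated mice of that slide and 19.1% lower, and 1 of the 2 treated mice carried WT marrow while both untreated mice carried KO marrow.

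The contrast of the mast cell types was taken as the mean change of Mcpt1 and Mcpt2 minus the mean change of Mcpt4, Cma1, Tpsb2 and Cpa3, each mouse set against the untreated mean of its own marrow. With WT marrow the difference was 4.22, 4.36 and 2.28 in the 3 treated mice, a mean of 3.62 ± 1.16 (SD, n = 3). With KO marrow it was 3.18, 2.75 and 2.04, a mean of 2.66 ± 0.58. In untreated mice it lay between -0.81 and 0.61, so that all 6 treated mice were above all 6 untreated mice. Mcpt2 enters with untreated signals at background, which leaves the size of the contrast uncertain. With slide as a block the contrast was smaller, 1.42 with WT marrow (2.63 for the mucosal pair and 1.21 for the other 4 genes) and 1.27 with KO marrow (2.98 and 1.70). No test is given for this difference, since the genes were grouped with earlier results of these data known.

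The parts of the contrast are given here for each marrow, and a difference between the marrows in them was not tested. The mucosal pair changed by 2.69, 3.69 and 2.48 with WT marrow and by 3.45, 3.70 and 2.98 with KO marrow. The connective-tissue group changed by -1.53, -0.67 and 0.20 with WT marrow and by 0.27, 0.96 and 0.93 with KO marrow. Its lower values were in the mice of slide 3 with WT marrow, and its 4 genes did not move together: Mcpt4 rose, Cma1 and Tpsb2 fell with WT marrow and Cpa3 passed in neither. With the normexp correction the contrast was 1.62 with WT marrow and 0.93 with KO marrow. Without Cpa3 it was 3.89 and 2.96.

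**Figure D5:**
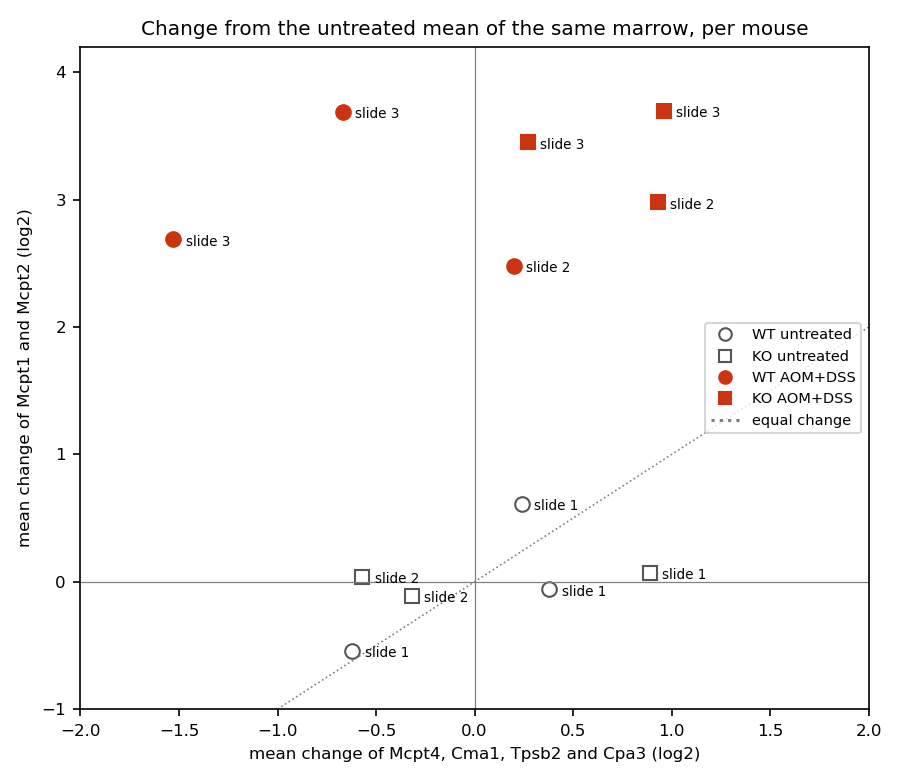
Mean change of the mucosal genes Mcpt1 and Mcpt2 (vertical, log2) against the mean change of Mcpt4, Cma1, Tpsb2 and Cpa3 (horizontal, log2) in each of the 12 mice, set against the untreated mean of the same marrow; symbols give the group, labels the slide, and the dotted line marks equal change. All 6 treated mice lie above the line, at mucosal changes of 2.48 to 3.70.

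No difference between KO and WT marrow passed the test for any of the 9 genes. In treated mice, 0 of the 9 genes differed between KO and WT marrow, where 0% of all genes passed (limma), and none reached an unadjusted p below 0.05, as 231 of all genes did. The differences lay between -1.07 for Hdc and 0.64 for Kit. Their 95% confidence intervals were wide, from -3.04 to 0.90 for Hdc, from -1.41 to 0.39 for Mcpt1 and from -1.66 to 2.16 for Tpsb2. Within slide 3, which held 2 treated mice of each marrow, none passed. Within slide 2, which held 1 of each, Kit was 2.24 higher with KO marrow, against the WT-marrow array whose Kit spots disagreed. A fit with the spread of the other groups put Kit past the threshold, with 2.36% of all genes, but with 1 mouse of each marrow this compares those mice only.

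In untreated mice, 0 of the 9 genes passed the test, with 0% of all genes (limma), and 4 had an unadjusted p below 0.05: Cma1, Cpa3, Mcpt4 and Tpsb2. Of all genes, 2911 did. The level was lower with KO marrow for the 8 genes other than Kit, by differences of -0.75 for Mcpt2 to -2.19 ± 0.88 for Tpsb2, with adjusted p of 0.404 or above. Cpa3 differed by -2.05 ± 0.67. Cpa3 and Cma1 (brighter probe) were the only ones of the 9 whose groups did not overlap, where 12.7% of all genes did not. On the dimmer Cma1 probe the groups overlapped, and the difference was 0.24, in the other direction (limma, adjusted p = 0.857). The dimmer Mcpt4 probe gave -1.08 (limma, adjusted p = 0.493). Slide separated these groups in part, as 2 of the 3 KO-marrow mice were on slide 2. With slide as a block the differences ranged from -1.09 for Mcpt2 to 0.19 for Kit, and that of Tpsb2 was -0.49. Within slide 1, the 1 KO-marrow mouse against 3 WT-marrow mice gave -0.49 ± 0.56 for Tpsb2 and -0.91 ± 0.76 for Cpa3 (limma, adjusted p of 1 for both). Without untreated KO-marrow mouse 1, Cpa3 differed by -2.61 and passed (limma, adjusted p = 0.039), with 7.01% of all genes.

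The interaction, which asks whether treatment acted differently with the 2 marrows, passed for 0 of the 9 genes and for 0% of all genes (limma, adjusted p of 0.897 or above for the 9), and none of the 9 had an unadjusted p below 0.05, as 829 of all genes did. It was 2.43 ± 1.25 for Tpsb2, 0.69 ± 1.29 for Hdc and 0.33 ± 0.59 for Mcpt1. That Cma1 and Tpsb2 passed with WT marrow and not with KO marrow is therefore not shown to be a difference between the marrows.

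Of the other proteases of the chymase cluster, only Ctsg, Gzmd, Gzmc and Gzmb were tested. Ctsg passed with WT marrow and none did with KO marrow, where 13.8% and 3.15% of all genes passed. The cluster holds 15 protein-coding genes from Cma1 to Gzmb, of which 14 have a probe and 8 were tested. Mcpt9, between Mcpt2 and Mcpt4, was well above background on 1 array, and Mcpt8, a basophil protease, on 2. Ctsg, cathepsin G, changed by -2.34 ± 0.56 with WT marrow (limma, adjusted p = 0.0233), by -0.87 with KO marrow (adjusted p = 0.544) and by 0.08 with WT marrow when slide was a block. Gzmb, granzyme B of cytotoxic lymphocytes, changed by 0.14 and 2.05, and neither passed (limma, adjusted p of 0.892 and 0.109). Among the 8 tested genes of the cluster, the rises past the threshold with either marrow were those of Mcpt1, Mcpt2 and the brighter probe of Mcpt4. Nothing can be said of the untested genes.

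Of the genes of IgE receptor signalling, 3 of 11 tested rose averaged over both marrows and none fell. The shares of all genes were 7.55% and 13.5%. Fcer1g, the signalling chain shared with other Fc receptors, changed by 1.49 ± 0.23 (limma, adjusted p = 0.00144), and the kinase Syk by 1.00 ± 0.21 (adjusted p = 0.00805). The kinase Lyn, the third gene of this count, changed by 1.16. In treated mice with WT marrow the lowest and highest Lyn level were both 1.66, the value of 1 mouse. One gene of the list had no value in treated WT-marrow mice 1 and 2 and treated KO-marrow mouse 1. Fcer1g also passed with slide as a block, at 2.23 (limma, adjusted p = 0.0098), while Syk, averaged in the same way, did not (adjusted p = 0.43). These genes are used by many myeloid cells. The median of the list was 0.63, beside -0.19 for all genes.

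Among genes of mast cell growth and recruitment, 4 of 13 tested rose and none fell, where 7.55% of all genes rose and 13.5% fell. Il1rl1, the receptor for interleukin 33, changed by 2.94 ± 0.43 (limma, adjusted p = 0.000918), and the slide block gave 4.11 (adjusted p = 0.00776). Il33 itself changed by 1.12 ± 0.34 (limma, adjusted p = 0.0355), Itgb7, an integrin chain for homing to the gut, by 1.29 ± 0.28 (adjusted p = 0.00853), and Tgfb1, which induces mucosal chymases in cultured mast cells, by 0.94 ± 0.31 (adjusted p = 0.0483). Those 3 did not pass with slide as a block. The median of the list was -0.02.

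Of 12 tested genes of mast cell lipid mediators and granules, 1 was higher and 3 lower averaged over both marrows. For all genes the shares were 7.55% higher and 13.5% lower, so with 12 genes these counts are not far from them. Srgn, the granule proteoglycan serglycin that binds proteases, changed by 3.14 ± 0.39 (limma, adjusted p = 0.000292), or 4.35 when slide was a block (adjusted p = 0.00732). Adora3, an adenosine receptor, changed by -3.01 ± 0.44 (limma, adjusted p = 0.000913), Hpgds, which makes prostaglandin D, by -1.55 ± 0.36 (adjusted p = 0.0117) and Rab27b, a regulator of granule release, by -0.68 ± 0.21 (adjusted p = 0.0358). None of the 3 passed with slide as a block. Srgn is also expressed by neutrophils and other blood cells.

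Markers of other cells that express some of the 9 genes were measured as well. None of 5 tested basophil genes, Fcer1a among them, and none of 3 tested eosinophil genes passed averaged over both marrows, where 21% of all genes did. Of the defining basophil proteases, Mcpt8 was not well above background on any untreated array, while Prss34 lay between -4.62 and -3.08 on all 12 arrays. Epx, eosinophil peroxidase, was well above background on 2 of 12 arrays, and Prg2 lay between -6.22 and -3.41. None of 10 smooth muscle genes and none of 6 adipocyte genes passed averaged over both marrows, again beside 21% of all genes. With slide as a block Actg2, a smooth muscle actin, fell by 1.89 (limma, adjusted p = 0.029), where 6.2% of all genes passed. The summed linear levels varied widely between mice: smooth muscle from 22.7 to 73.4 in untreated WT-marrow mice and from 13.7 to 129 in treated ones. The summed adipocyte level was 114 in untreated WT-marrow mouse 2 and 4.02 to 6.22 in the other 2 of its group. The part of these tissues in the levels of the connective-tissue type genes was not tested.

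The authors' deposited table gives group values of 2506 probes that it labels differentially expressed, where the arrays hold 41174 probes. It holds 4 of the 9 genes, Hdc, Mcpt1, Mcpt2 and Mcpt4, and not Cma1 or Tpsb2. In the authors' deposited table Hdc stood at -1.77 and -3.53 in untreated mice with WT and KO marrow and at 3.09 and 2.02 in treated mice, as log2 values. In the authors' deposited table Mcpt1 stood at -1.32, -2.15, 1.70 and 1.19 in the same order. Set against the arrays, these values were log2 group means minus the probe's median over the 12 arrays, with a median absolute difference of 0.0094 over 2504 matched probes.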

How the data were processed

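Colon mucosa of 12 mice was measured on 12 single-colour Agilent mouse arrays (Cy3), 3 mice per group. The authors deposited the scanner's linear intensities, which its software (per the file headers, Feature Extraction 10.7.3.1) had corrected for background without scaling between arrays. The authors also deposited group values of 2506 probes as log2. Here the log2 processed signal minus each array's 75th percentile was used, without control spots, with outlier spots set to missing and spots of a probe averaged. Symbols came from mouse RefSeq genes (GRCm38.p6, names only), which named 24375 of 41174 probes, of 17016 genes. A gene was represented by its brightest kept probe. A mean for each group was fitted with limma 3.58.1 (R 4.3.3, data.table, version 1.17.8; 8 residual and 4.9 prior degrees of freedom), with Benjamini-Hochberg adjustment within a comparison. The step was tested on simulated data.

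The 9 genes, the other gene lists and the alternatives were chosen with earlier results of these data known. All 9 genes are named; of every other list, up to 4 genes that passed averaged over both marrows, or 2 defining genes by level where none did; and the 4 genes nearest to Hdc, Mcpt1, Mcpt2, Tpsb2 and Cma1. Mcpt9 and Gzmb (neighbours in the chymase cluster) and Actg2 were named after their values were seen. Alternatives were other background corrections, scalings, filters and probes, array weights, slide and replicate blocks, within-slide fits and leaving out each mouse. Deviations of treated WT- and KO-marrow mice with the same number correlated at 0.42, 0.31 and 0.51; each of these pairs shared a slide, and the replicate block changed no call. The labels give 1 colon per sample, so p values rest on the spread between mice. Except for untreated mice with WT marrow, each group lay on more than 1 slide, so that spread also holds any slide differences. The number of arrays limits the precision.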

Additional observations from a re-analysis of the deposited data

How the results depend on the processing

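The rises of Hdc, Mcpt1 and Mcpt4 in both marrows were past the threshold under quantile normalization, a normexp background correction, scaling to the median, no filter on dim probes, no trend in the variance and array weights, and in every fit that left out 1 mouse; the dimmer Mcpt4 probe, and for WT marrow the slide block on Mcpt1 and Mcpt4, were the exceptions. The rise of Mcpt2 did not pass under normexp (1.83 with WT marrow, 1.16 with KO marrow). Tpsb2 turned sign with slide as a block, to 0.42 with WT marrow and 0.79 averaged over both marrows.

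Counts of the 9 genes past the threshold were 6 with WT marrow, 4 with KO marrow and 6 averaged over both. Asking for a signal well above background on all 12 arrays left 3, 2 and 3, since fewer genes are tested; with slide as a block 1 with WT marrow and 3 averaged over both passed. Leaving out 1 mouse at a time gave 3 to 7 with WT marrow, where 2.02% to 30.6% of all genes passed. The count was 3 without untreated or treated mouse 1, where 2.02% and 2.09% of all genes passed. With KO marrow it was 3 to 4, with 1.06% to 4.97% of all genes. Averaged over both it was 5 to 6, with 11.4% to 36%. For KO against WT marrow, the main count of 0 became 1 within slide 2 in treated mice (Kit), and 0 to 1 in untreated mice when 1 mouse was left out (1 without KO-marrow mouse 1, with 7.01% of all genes). Array weights gave 7 genes for treatment with KO marrow, 8 for the marrows in untreated mice and 1 for the interaction (Tpsb2, 3.35), where 35.7%, 49.1% and 12% of all genes passed, and the estimate of those weights did not converge. The contrast of mucosal with connective-tissue type genes was 1.62 with WT marrow and 0.93 with KO marrow under normexp and 1.42 and 1.27 with slide as a block, against 3.62 and 2.66. Normexp on median spot signals, the dimmer probes and the blocked contrast were chosen after seeing the data.

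The slide block for WT marrow rests on 1 array, untreated KO-marrow mouse 1, as the link from slide 1 to the others. With the replicate number as a block, 6, 4 and 6 of the 9 genes passed for treatment, with 9.81%, 3.01% and 19% of all genes. For the marrows 0 passed, and no call changed. Over all 4 groups the numbers were not taken as pairs: 7 of 18 pairs with the same number correlated above 0.1 (range -0.38 to 0.51), although 9 of 12 arrays correlated best with their own number.

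The median change of all genes with WT marrow was -0.24, against 0.06 under quantile normalization, 0.39 under normexp and 0.36 under median scaling. Of called genes with WT marrow, 26.2% were higher, against 48.7%, 38.3% and 56.7%; with KO marrow 58.6%, against 70.3%, 56.1% and 72.9%.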
